A study of Mus musculus with 82 samples.

Results

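Wild type mouse sciatic nerves collected 14 days after an injury were compared with wild type nerves collected 7 days after it, over every gene of the injury time course table. The comparison used 6 of the 82 libraries of the series, 3 at each time, chosen by their labels alone. Its fit also drew on the other 12 libraries of that table: wild type nerves at 3 days and nerves labelled Mutant at 3, 7 and 14 days, 3 of each. The labels did not say what kind of injury was made, what the Mutant allele is, how old the mice were, or whether each sample was a different animal. The p-values therefore reflect only sample-to-sample spread, part of which may be technical. RNA was taken from whole nerve, so fewer cells of a type and less RNA per cell cannot be told apart in any result below.

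After a peripheral nerve is injured, the axons beyond the injury break down and the Schwann cells that wrapped them shut off myelin genes. These cells turn into repair cells, which clear debris with macrophages, secrete trophic factors and guide regrowing axons. The transcription factor Jun drives much of that program, and cells that meet axons again can stop dividing, lose the repair program and form myelin under the factors Pou3f1 and Egr2.

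The 6 libraries held between 15438783 and 19704184 estimated counts. The libraries differed in RNA from skeletal muscle, the tissue next to the nerve. The 28 listed genes of mature muscle fibres took 0.842%, 0.43% and 4.38% of the counts in day 7 replicates 1, 2 and 3. They took 1.2%, 11.8% and 9.21% in day 14 replicates 1, 2 and 3. The groups overlapped: day 14 replicate 1 held less muscle RNA than day 7 replicate 3. In the plot of muscle share, 2 of the 3 day 14 libraries stood above every other wild type library. All 28 fibre genes had positive differences, with a median log2 difference of 2.17, but only Myh2, a fast fibre myosin, passed the test, as set out below. The Xist transcript of females and the Y-linked Ddx3y both reached 1 CPM (the scaled level used throughout) in 5 of the 6 libraries, so most libraries carried RNA of both sexes.

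**Figure D1:**
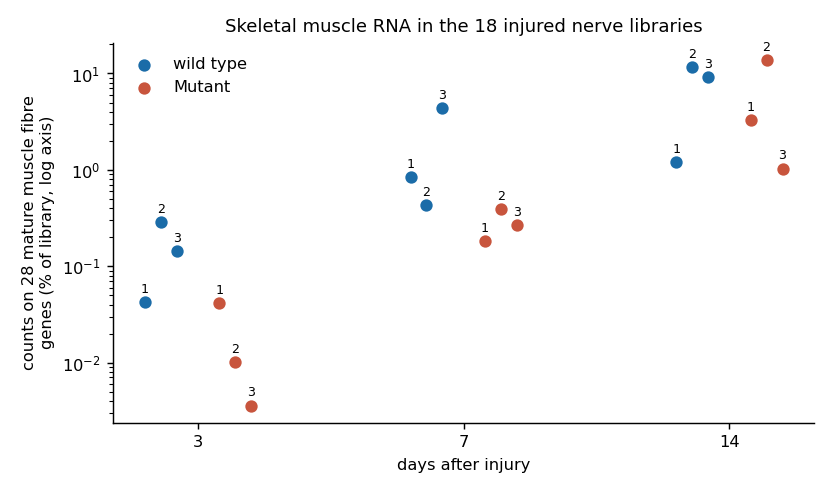
Share of each library's counts on the 28 mature muscle fibre genes, on a log axis, for the 18 libraries by day after injury and genotype; numbers are replicates. Wild type day 14 replicates 2 and 3 sit at 11.8% and 9.21%, and replicate 1 sits at 1.2%, below day 7 replicate 3 at 4.38%.

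Between 7 and 14 days, 16 of 31 repair program genes fell, with 9 of 30 mitosis genes, 9 of 32 DNA replication genes and 8 of 29 matrix genes, while Pou3f1, claudin 1 and 5 of 16 clock genes rose. Of 15852 genes tested with edgeR's quasi-likelihood test, 1175 passed an adjusted p of 0.05, which is 7.41% of them. Of these, 399 were higher at day 14 (2.52% of the genes tested) and 776 were lower (4.9%). A difference of at least 2-fold was seen for 206 of the higher and 332 of the lower genes, and the median log2 difference over all genes tested was -0.01. An unadjusted p under 0.05 was reached by 5112 genes, or 32.2%. Among the called genes, 388 of the higher and 763 of the lower had no overlap between the 3 libraries of each day. Over all genes tested, the day 14 libraries lay wholly above for 14.6% and wholly below for 18.6%. The number of calls rested on few libraries: it was 176 without day 14 replicate 2, 204 without day 14 replicate 3, 191 without day 7 replicate 2, 526 without day 7 replicate 3 and 1933 without day 14 replicate 1. The 6 libraries fitted alone gave 292 calls, and a fit with the muscle level as a covariate gave 271. Of the 1175 genes, 1134 kept their sign under each of 16 alternative settings, and 34 passed the test under each of them. The 1175 were picked by their difference in these same libraries. A kept sign and groups without overlap were therefore likely from the start and are no added support for the direction.

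Lgals7 encodes galectin-7, a sugar-binding protein of layered epithelia (chr7:28863853-28866284 on mm10). It stood at 3.15, 2.37 and 2.59 CPM in the day 7 libraries and at 29.2, 19.1 and 25.9 CPM at day 14. No library of either day came near the other group, and the difference was 9.15-fold (log2 3.19, SE 0.25, edgeR adjusted p = 2.58e-05), the smallest p of the comparison. Dapk2, a calmodulin-regulated kinase, stood at 13.5, 10.1 and 12.3 CPM and then at 36.9, 31.4 and 47.3 CPM (log2 1.69, SE 0.17, adjusted p = 0.000232). Klf5, a zinc finger transcription factor, went from 51.7, 40.9 and 50.7 CPM to 141, 125 and 122 CPM (log2 1.44, SE 0.17, adjusted p = 0.000854). These 3 genes had higher levels at day 14 in all 3 libraries, including the one with little muscle RNA.

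Tsc22d3, a leucine zipper protein induced by glucocorticoids, stood at 76.9, 51.1 and 66.8 CPM at day 7 and at 166, 240 and 214 CPM at day 14 (log2 1.67, SE 0.21, adjusted p = 0.00109). The other genes with the smallest p among the higher ones were Spink1, a trypsin inhibitor (log2 2.47), Sh3gl3, an endophilin of membrane traffic (1.64), the cytokine Il15 (1.33), Serpinb6c, a protease inhibitor (1.29), the sulfotransferase Sult5a1 (1.23), and Pou3f1, described with the myelin genes. Of these 10 genes, Lgals7, Dapk2, Klf5, Tsc22d3, Spink1, Pou3f1 and Sult5a1 passed the test under every alternative setting that was tried.

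On the lower side, Plaur, the receptor that holds urokinase at the cell surface, stood at 17.5, 22 and 19.8 CPM at day 7 and at 8.61, 5.83 and 7.56 CPM at day 14. The groups did not overlap, and the gene fell by 1.43 on the log2 scale (SE 0.15, adjusted p = 0.000464). Spp1, which encodes osteopontin, a secreted phosphoprotein of injured nerve and of phagocytes, stood at 517, 758 and 920 CPM and then at 193, 206 and 251 CPM (fell by 1.76, SE 0.24, adjusted p = 0.0022). C1qtnf3, a secreted C1q/TNF-related protein, went from 121, 119 and 69.2 CPM to 12.6, 13.7 and 15.8 CPM, 7.33-fold lower (adjusted p = 0.00109). Day 7 replicate 3 was the lowest of its group for C1qtnf3 and the highest for Spp1.

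Me2, a mitochondrial malic enzyme, was lower by nearly the same amount in every library, at 35.3, 35.3 and 38.7 CPM and then 18.1, 16.4 and 19.3 CPM (fell by 1.02, SE 0.1, adjusted p = 0.000232). The rest of the 10 were Cnih2, an AMPA receptor auxiliary protein (log2 -2.03), Cplx2, a complexin of vesicle release (-1.55), Ltbp2, a microfibril protein (-2.29), Slc25a13, a mitochondrial aspartate-glutamate carrier (-1.42), Fam167a (-2.25) and Snai1, a repressor of epithelial genes (-1.52). Cplx2 and Fam167a differed less in the Mutant nerves over the same interval, at log2 -0.5 and -0.74, but that difference was not past the interaction test.

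**Figure D2:**
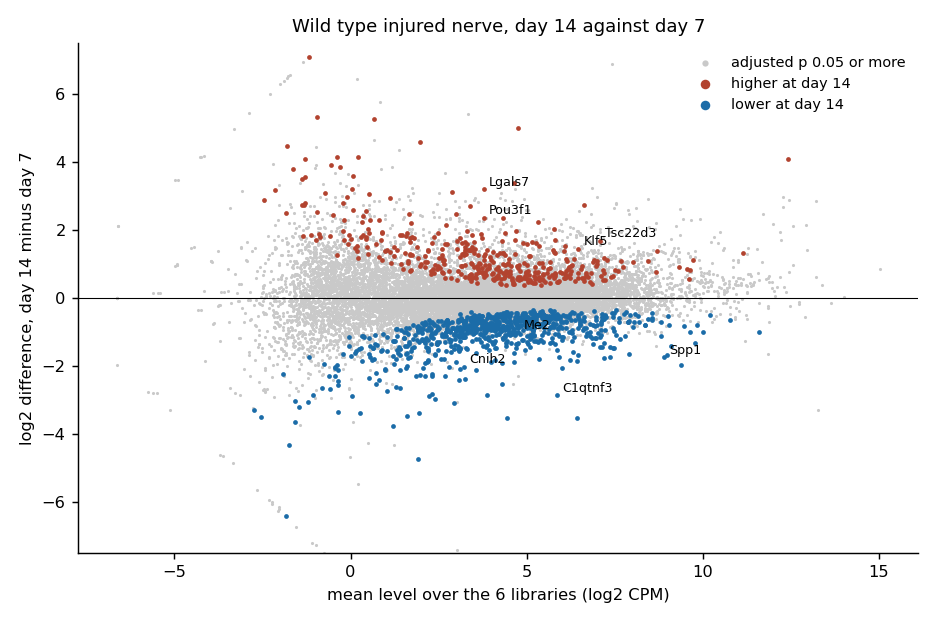
Each point is a gene, by its mean level over the 6 libraries (log2 CPM) and its log2 difference, day 14 minus day 7; coloured points passed an adjusted p of 0.05, 399 higher and 776 lower, and 14 genes lie beyond the vertical axis. Lgals7 and Pou3f1 stand at 3.19 and 2.35 among the higher genes, and Spp1 at -1.76 is among the most abundant of the lower.

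Several genes of compact myelin had higher levels in every day 14 library than in any day 7 library, against a wide spread in the fit. Mag, the adhesion protein of the innermost myelin wrap (chr7:30899176-30914873), stood at 2.6, 2.12 and 2.25 CPM at day 7 and at 19.1, 16.8 and 13.8 CPM at day 14. Pmp2, a fatty acid carrier of myelin, stood at 5.01, 6.91 and 2.98 CPM and then at 40.9, 34.9 and 35 CPM. In both genes every day 14 library lay above every day 7 library, at 7.13-fold and 7.37-fold, yet the adjusted p was 0.0696 and 0.0638. Of the 25 listed myelin genes 1 passed the test, Cmtm5, a membrane protein of myelin (log2 2.35, SE 0.63, adjusted p = 0.0407). Every day 14 library lay above every day 7 library for 11 of 25 (all genes, 14.6%), and none lay wholly below (all genes, 18.6%).

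The spread behind those p-values included a library outside the comparison. Mutant day 7 replicate 1 held a summed level of 15250 CPM over the 25 myelin genes, where the other 17 libraries held between 1386 and 6044 CPM. With that library left out of the fit, an alternative chosen after seeing the data, 9 of the 25 passed the test, all higher, among them Mag (adjusted p = 1.59e-05), Pmp2 (2.7e-05), Cldn19, the tight junction protein of myelin loops (9.1e-05), Cmtm5 (0.000205), Prx, a scaffold of the Schwann cell membrane (0.000346), Pmp22 (0.00146), Ncmap (0.00222) and Mal (0.0393). The log2 differences of these genes under that setting ran from 0.61 for Mal to 3.69 for Ncmap. Over all genes that fit called 370 of 16182 higher (2.29%). With the 6 libraries fitted alone, 7 of the 25 passed, all higher, against 162 of 14824 genes (1.09%). The median of the list was 0.33 in the fit of all 18 libraries, and Mbp, the myelin basic protein, overlapped between days at 282, 150 and 281 CPM and then 479, 446 and 247 CPM.

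In the preceding interval, which shares the day 7 libraries, 19 of the 25 myelin genes had been lower at day 7 than at day 3. Mag averaged 23.4 CPM at day 3, 2.32 at day 7 and 16.6 at day 14.

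Pou3f1, also called Oct6, is the factor of promyelinating Schwann cells (chr4:124656807-124660655). It stood at 3.21, 4.93 and 5.37 CPM at day 7 and at 29.7, 22 and 17.3 CPM at day 14. The groups did not overlap, and the difference was 5.1-fold (log2 2.35, SE 0.31, adjusted p = 0.00162). At day 3 the gene averaged 71.9 CPM, so it fell between day 3 and day 7 (log2 -3.99, adjusted p = 8.24e-07). Egr2, the factor that drives myelin genes, overlapped between days at 12.9, 21.9 and 16.6 CPM and then 20.9, 11.6 and 13.4 CPM (log2 -0.16, adjusted p = 0.749), a difference near 0 whose sign turned under 4 of the alternative settings. Sox10, the factor of Schwann cell identity, stood at 39.9, 60.9 and 80.1 CPM and then at 43.7, 21.5 and 24.1 CPM (adjusted p = 0.0932). Of the 15 listed myelination factors 1 was higher, Pou3f1, and 1 was lower, Nfatc4, a calcineurin-regulated factor (log2 -0.85, adjusted p = 0.0437). Over all genes tested 2.52% were higher and 4.9% lower.

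Few genes of lipid synthesis passed. None of 25 cholesterol synthesis genes did with edgeR or DESeq2 (median 0.01), and 2 had an unadjusted p under 0.05, below the 32.2% of all genes. Of 22 genes of fatty acid and sphingolipid synthesis 1 did, Sgms1, a sphingomyelin synthase (log2 0.55, adjusted p = 0.0401). Fa2h, which makes the hydroxylated fatty acids of myelin, stood at 0.618, 0.0493 and 0.0663 CPM and then at 6.94, 5.16 and 2.73 CPM (adjusted p = 0.0971), and it passed the test without Mutant day 7 replicate 1 (adjusted p = 0.00167).

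Of 31 listed genes of the repair Schwann cell, 16 fell, 1 rose and 14 did not pass, against 4.9% lower and 2.52% higher over all genes tested. The median log2 difference was -1.02 against -0.01 over all genes. Among the transcription factors, Atf3, induced by axon injury, stood at 114, 72.8 and 166 CPM at day 7 and at 23, 30.1 and 46.4 CPM at day 14 (fell by 1.83, SE 0.36, adjusted p = 0.0129). Jun stood at 125, 150 and 177 CPM and then at 89.2, 78 and 91.7 CPM (fell by 0.8, SE 0.19, adjusted p = 0.026). Runx2, a Runt domain factor, went from 20.8, 25.3 and 33.8 CPM to 10, 5.09 and 7.24 CPM (fell by 1.83, SE 0.34, adjusted p = 0.0105). None of the 3 overlapped between days. Sox2, a factor that holds Schwann cells immature, was lower by 0.91 (adjusted p = 0.0315).

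The secreted factors of the list followed. Gdnf, which supports motor neurons, stood at 5.75, 5.33 and 10.6 CPM at day 7 and at 1.86, 1.03 and 1.4 CPM at day 14, 4.97-fold lower (adjusted p = 0.0178). Shh, sonic hedgehog, stood at 5.07, 9.96 and 26.7 CPM and then at 1.36, 0.664 and 2.73 CPM, 8.6-fold lower (adjusted p = 0.0284). Day 7 replicate 3 had the highest level of both, and also of Ngfr, Gfra1 and Met below. Lif and Clcf1, cytokines of the gp130 family, fell by 1.5 and 1.8 (adjusted p = 0.0115 and 0.0173), and Btc, an EGF family ligand, fell by 1.25 (adjusted p = 0.0358). Artn and Bdnf, both low in these nerves, had differences of -1.06 and -0.69 that did not pass the test.

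Among receptors and adhesion proteins, Ngfr, the p75 neurotrophin receptor (chr11:95568818-95587735), stood at 130, 173 and 376 CPM at day 7 and at 82.9, 39.6 and 74.3 CPM at day 14. The groups did not overlap, but replicate 3 lifted the day 7 mean, and the difference was 3.45-fold (fell by 1.79, SE 0.48, adjusted p = 0.0399). Gfra1, a co-receptor for GDNF, stood at 50.1, 62 and 170 CPM and then at 32.1, 18.9 and 32.8 CPM (adjusted p = 0.0497). Met, the hepatocyte growth factor receptor, fell by 1.35, and Sema4f, a semaphorin, by 1.48. Tnc, the matrix glycoprotein tenascin C, went from 663, 1625 and 908 CPM to 376, 176 and 261 CPM (fell by 1.97, SE 0.38, adjusted p = 0.0114). Igfbp2 and Cdh2, N-cadherin, completed the 16, at -2.39 and -0.78, and only Cdh2 overlapped between days.

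Egfl8, an EGF-like secreted protein on the same list, went the other way. It stood at 22.1, 36.1 and 19.4 CPM at day 7 and at 216, 156 and 140 CPM at day 14, 6.59-fold higher with no overlap (log2 2.72, SE 0.54, adjusted p = 0.0132). Gap43, a growth cone protein also made by Schwann cells, overlapped at 64.1, 46.9 and 58.5 CPM and then 103, 58.1 and 61.1 CPM (adjusted p = 0.228).

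The list was lower with or without the muscle signal in the fit, although its calls were not as steady. With the muscle covariate the median was -1.06 and 8 of 31 were called lower. Without the 5 muscle-rich libraries, which leaves 1 wild type library at day 14 assumed to vary like the others, the median was -0.81 and none was called. Leaving out day 14 replicate 2 left 0 lower calls, day 14 replicate 3 left 3, day 7 replicate 3 left 4 and day 7 replicate 2 left 6.

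**Figure D3:**
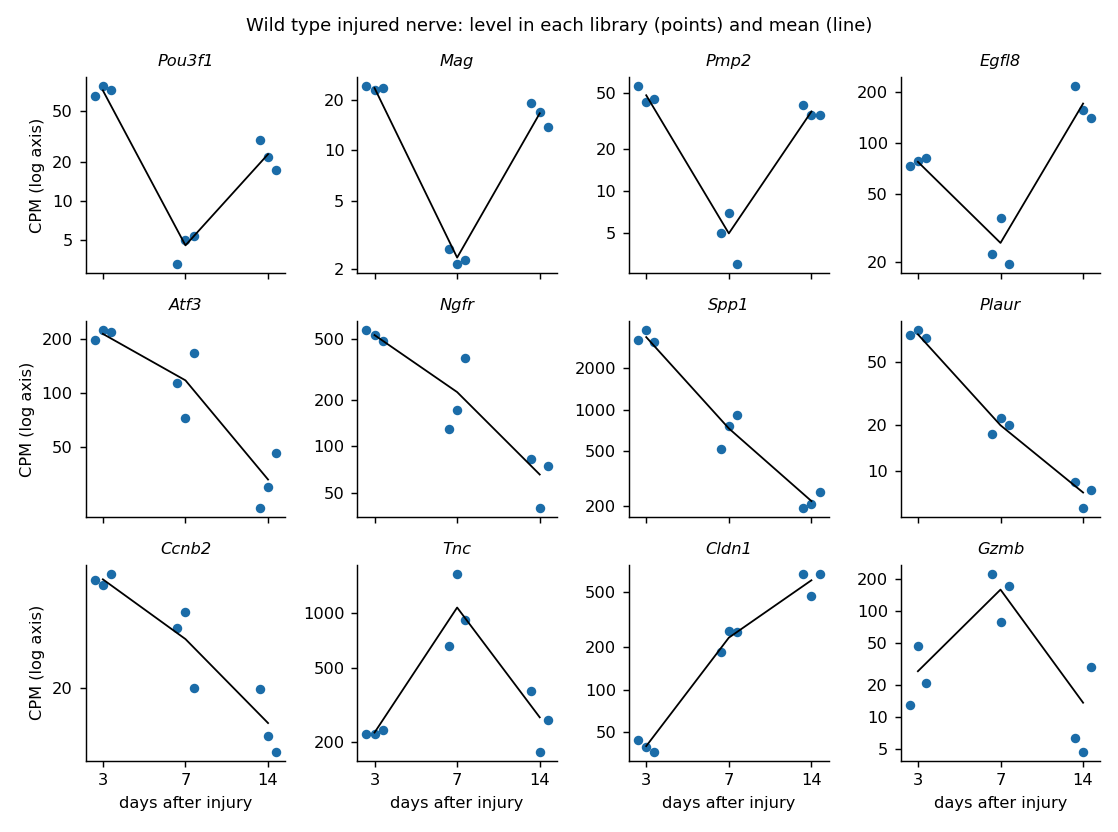
Level of 12 genes in each wild type library (points, CPM on a log axis) at 3, 7 and 14 days, with a line through the group means. Pou3f1, Mag, Pmp2 and Egfl8 are lowest at day 7; the means of Atf3, Ngfr, Spp1, Plaur and Ccnb2 go down at each time; Tnc and Gzmb are highest at day 7; Cldn1 goes up at each time.

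Genes of immature and non-myelinating Schwann cells split. Of 16 tested, 4 rose and 4 fell, against 2.52% and 4.9% of all genes tested, and the median was -0.45. Scn7a, a sodium channel of non-myelinating cells, stood at 53.1, 81.6 and 63.5 CPM and then at 128, 99.3 and 102 CPM (log2 0.73, adjusted p = 0.0312). Id2 and Id4, inhibitors of basic helix-loop-helix factors, rose by 0.73 and 0.99, and Gfra3, the artemin co-receptor, by 1.9 (adjusted p = 0.0257, 0.0182 and 0.0381). S100b, a calcium-binding protein of Schwann cells, stood at 128, 62 and 168 CPM and then at 44.8, 39.5 and 34.3 CPM (fell by 1.59, adjusted p = 0.0183). The other 3 that fell, Sox2, Ngfr and Cdh2, are also on the repair list.

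Part of the cell division genes fell. Of 30 mitosis genes all 30 had negative differences (median -0.76) and 9 passed the test. Of 32 DNA replication genes 30 were negative (median -0.58) and 9 passed. All calls of both lists were lower, against 4.9% of all genes tested. Ccnb2, cyclin B2, stood at 30.6, 34.3 and 20.1 CPM at day 7 and at 19.9, 14.3 and 12.8 CPM at day 14 (fell by 0.86, SE 0.2, adjusted p = 0.0249). Plk1, a mitotic kinase, went from 8.59, 16.9 and 8.22 CPM to 6.44, 3.17 and 3.24 CPM (fell by 1.39, SE 0.38, adjusted p = 0.0418). Cdca8, borealin of the chromosomal passenger complex, went from 10.3, 17.1 and 9.48 CPM to 6.94, 5.83 and 4.83 CPM (fell by 1.07, adjusted p = 0.0367). None of the 3 overlapped, and day 7 replicate 2 was the highest library for each.

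Hmmr, a spindle protein, Nuf2 of the kinetochore and Tpx2, which activates Aurora A, fell by 1.44, 0.76 and 1.08. Of the replication genes, Mcm5 of the replicative helicase fell by 1.26 (adjusted p = 0.0143), Chaf1b, a histone chaperone, by 1.23, Fen1, the flap nuclease, by 0.77, and Pole, a replicative polymerase, by 1.44. Mki67, the usual marker of cycling cells, stood at 17.1, 24.3 and 16.4 CPM and then at 13.9, 11.1 and 8.45 CPM, without overlap and short of the threshold (adjusted p = 0.0872). The calls moved with the muscle level and with single libraries. With the muscle covariate the mitosis median was -0.39 with 0 calls and the replication median -0.35 with 2 calls, and both lists had 0 calls when day 7 replicate 2, day 14 replicate 2 or day 14 replicate 3 was left out, with mitosis medians of -0.55, -0.67 and -0.69 and replication medians of -0.43, -0.48 and -0.51.

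The mitosis genes also shared letters in their promoters. In RefSeq's windows on GRCm38.p6, 250 bases before to 50 bases after each start, the 6 letters TTTGAA, the core of the cell cycle homology region of late cell cycle genes, were found on either strand for 20 of the 26 mitosis genes with an entry (76.9%), against 14.4% of 10792 tested genes with an entry. The 5 letters CCAAT, the NF-Y box, were found for 21 of 26 (80.8%) against 42.5%. The replication genes held TTTGAA at 14.8% and CCAAT at 66.7% of 27, and TTTCCCGC, a form of the E2F site, at 18.5% against 2.21% of all. A match is a description of the letters in this window. The 3 windows below, of mitosis genes that passed the test, are shown with both motifs in capitals, on either strand. They lie at chr9:70421505-70421804 (minus strand), chr7:122159185-122159484 (plus strand) and chr4:124936868-124937167 (minus strand), and each is written 5′ to 3′ on the strand of its gene. In Cdca8 the TTTGAA and the last CCAAT match, read on the opposite strand, overlap by 1 base.
Ccnb2: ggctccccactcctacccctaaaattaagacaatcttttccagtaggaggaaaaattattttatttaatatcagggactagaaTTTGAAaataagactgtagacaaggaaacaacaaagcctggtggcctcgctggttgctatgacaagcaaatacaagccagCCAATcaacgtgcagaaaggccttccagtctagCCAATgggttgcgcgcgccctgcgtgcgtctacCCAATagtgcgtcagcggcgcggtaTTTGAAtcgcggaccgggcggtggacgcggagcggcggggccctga
Plk1: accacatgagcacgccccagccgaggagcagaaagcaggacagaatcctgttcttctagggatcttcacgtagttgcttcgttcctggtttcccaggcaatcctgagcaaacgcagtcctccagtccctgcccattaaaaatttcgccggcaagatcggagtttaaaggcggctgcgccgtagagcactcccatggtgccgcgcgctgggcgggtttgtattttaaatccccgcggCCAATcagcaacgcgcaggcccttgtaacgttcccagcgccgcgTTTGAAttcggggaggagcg
Cdca8: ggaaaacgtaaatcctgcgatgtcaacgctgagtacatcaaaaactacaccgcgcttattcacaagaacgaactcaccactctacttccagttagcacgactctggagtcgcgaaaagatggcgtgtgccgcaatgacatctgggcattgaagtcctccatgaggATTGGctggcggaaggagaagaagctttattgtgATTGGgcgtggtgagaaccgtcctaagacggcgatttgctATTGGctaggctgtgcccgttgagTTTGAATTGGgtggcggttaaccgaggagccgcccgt

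Of 29 extracellular matrix genes, 8 fell, none rose and 21 did not pass, against 4.9% lower and 2.52% higher over all genes tested. The median was -0.96, while 21 of 29 had been higher at day 7 than at day 3. DESeq2 called 13 lower and 2 higher (1506 and 934 of 29343 over all genes). The differences were negative for 26 and positive for 3. Among the positive ones Dcn, decorin, stood at 2710, 2557 and 3574 CPM and then at 4532, 4114 and 4673 CPM. Fn1, fibronectin, stood at 834, 1769 and 1168 CPM at day 7 and at 635, 467 and 408 CPM at day 14 (fell by 1.32, SE 0.34, adjusted p = 0.0329). Lox, which crosslinks collagen, went from 253, 372 and 211 CPM to 155, 99.9 and 107 CPM (fell by 1.21, adjusted p = 0.0318). Col8a1 fell by 1.1, the proteoglycan Bgn by 1, elastin (Eln) by 1.16, and Col6a1 and Col6a2 of type VI collagen by 1.41 and 1.67. Day 7 replicate 2 held the highest level of these genes, as of Tnc. Col1a1, the main fibrillar collagen, stood at 1865, 5614 and 2625 CPM and then at 1975, 1072 and 1124 CPM, with overlap (adjusted p = 0.0975). None of the 29 was called without day 7 replicate 2, day 14 replicate 2 or day 14 replicate 3, with medians of -0.63, -0.8 and -0.9, and 3 were called without day 7 replicate 3. Under the muscle covariate 1 was called and the median was -0.6, and without Mutant day 7 replicate 1 there were 4.

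Of 22 proteases that cut matrix, with their inhibitors and receptors, 6 fell, 1 rose and 15 did not pass (median -0.78). The shares over all genes tested were 4.9% lower and 2.52% higher. Mmp9, gelatinase B, stood at 35.5, 32.3 and 9.15 CPM at day 7 and at 3.53, 3.76 and 3.3 CPM at day 14, 7.27-fold lower (adjusted p = 0.0074). Adam12 went from 31.6, 56.7 and 29.7 CPM to 15.3, 8.04 and 8.2 CPM (fell by 1.9, adjusted p = 0.01). Mmp19 fell by 1.09, Plat, tissue plasminogen activator, by 0.89 and Adamts4, an aggrecanase, by 1.92. Mmp3, stromelysin 1, was the exception, at 21.4, 17.7 and 9.55 CPM and then 31.2, 28.5 and 33.2 CPM (log2 0.93, adjusted p = 0.0275).

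The promoters of Plaur, the receptor of this system, and of Lif, from the repair list, both hold the AP-1 letters TGANTCA, the site of Jun and its partners. TGANTCA was found on either strand in the windows of 734 of the 10792 tested genes with an entry (6.8%), of 8.64% of 579 genes called lower, of 9.43% of 244 called higher, and of 4 of 21 repair genes. The shares of the lower and higher genes were thus close to each other. The windows of these called genes are shown with TGANTCA, whose reverse complement has the same letters, in capitals. They lie at chr7:24462233-24462532 and chr11:4257318-4257617, both on the plus strand.
Plaur: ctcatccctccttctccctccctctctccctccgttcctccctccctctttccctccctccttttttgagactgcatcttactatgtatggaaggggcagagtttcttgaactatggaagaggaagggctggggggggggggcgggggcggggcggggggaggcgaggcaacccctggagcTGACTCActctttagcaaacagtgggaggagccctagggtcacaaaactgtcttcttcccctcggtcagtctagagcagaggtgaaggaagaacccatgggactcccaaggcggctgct
Lif: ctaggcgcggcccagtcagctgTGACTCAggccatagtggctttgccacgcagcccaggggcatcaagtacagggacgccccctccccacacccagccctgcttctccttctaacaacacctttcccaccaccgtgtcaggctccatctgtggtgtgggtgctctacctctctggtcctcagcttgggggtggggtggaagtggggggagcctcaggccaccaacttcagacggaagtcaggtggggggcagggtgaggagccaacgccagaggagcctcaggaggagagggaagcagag

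Immune genes changed in part. Ccr2, the receptor of inflammatory monocytes, stood at 73.6, 95.9 and 69.1 CPM at day 7 and at 53, 41.7 and 38.3 CPM at day 14 (fell by 0.84, SE 0.15, adjusted p = 0.00859). Ccr1, another chemokine receptor, fell by 0.98 (adjusted p = 0.0416). Of 26 chemokine system genes 3 passed, all lower (all genes tested, 4.9%), and Ccr1 and Ccr2 were among them, without overlap between days. Of 20 macrophage and monocyte markers Ccr2 alone passed (median -0.39), and Adgre1, which encodes F4/80, overlapped at 57.3, 88.5 and 80.3 CPM and then 60.6, 65.4 and 53.8 CPM (adjusted p = 0.483).

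Of 20 genes of phagocyte lipid handling 4 fell and 1 rose, against 4.9% and 2.52% of all genes tested. The 1 that rose was Fabp4, which is also on the adipocyte list, where all 10 genes had positive differences. Msr1, a scavenger receptor, fell by 1.16 (adjusted p = 0.0225), Axl, a receptor for dying cells, by 0.87 (0.0312) and Soat1, which esterifies cholesterol, by 0.77 (0.0389), beside Spp1 above. Trem2, a lipid-sensing receptor of macrophages, overlapped, at 107, 116 and 151 CPM and then 109, 115 and 106 CPM (adjusted p = 0.754). Of 39 lysosome genes 1 passed, Idua, a glycosidase (log2 -0.68, adjusted p = 0.0499). Of the 39, 34 had negative differences (median -0.29), and 13 lay wholly below at day 14, against 18.6% of all genes. DESeq2 called 5 of them lower (1506 of 29343 over all genes). An unadjusted p under 0.05 was reached by 9, a share below the 32.2% of all genes. None of 12 MHC class II genes passed with edgeR or DESeq2, and 0 had an unadjusted p under 0.05. None of 16 interferon response genes passed edgeR's test, with 3 at an unadjusted p under 0.05, a share below the 32.2% of all genes, and 1 called lower by DESeq2. For Cd74, the invariant chain, the difference was 0.07, a value near 0 whose sign turned without day 7 replicate 1 or day 14 replicate 1.

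Complement genes were higher for 3 of 18 (median 0.4), against 2.52% of all genes tested. C2 stood at 43.1, 34.4 and 57.2 CPM and then at 95.3, 80.5 and 111 CPM (log2 1.09, adjusted p = 0.0201), and C1s1 rose by 0.75 (adjusted p = 0.0374). No complement gene passed with the muscle covariate; C2 and C1s1 had an adjusted p of 0.0549 and 0.077 there, with log2 differences of 1.1 and 0.83.

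Gzmb, granzyme B of cytotoxic lymphocytes, stood at 227, 79.8 and 174 CPM at day 7 and at 6.44, 4.72 and 30.1 CPM at day 14, 11.6-fold lower (fell by 3.54, SE 0.72, adjusted p = 0.0163). Klrd1, an NK cell receptor, stood at 1.48, 1.58 and 0.398 CPM and then at 7.18, 6.12 and 2.99 CPM (log2 2.21, adjusted p = 0.0285). The T cell genes Cd3d and Cd3e were at 2.73 CPM or lower in each of the 6 libraries. The 2 lymphocyte markers that passed therefore had opposite signs, and Gzmb made up most of the list's summed level at day 7. Of the 11 lymphocyte markers tested, 9 had positive differences and 2 negative ones (median 0.67). Every day 14 library lay above every day 7 library for 6 of the 11 (all genes, 14.6%), and 1 lay wholly below (18.6%).

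Perineurial genes, of the barrier sheath around the nerve fascicles, were higher for 4 of 10 (all genes tested, 2.52%), with none lower and a median of 0.78. Cldn1, claudin 1 of tight junctions (chr16:26356642-26371841), stood at 184, 261 and 259 CPM at day 7 and at 670, 467 and 673 CPM at day 14 (log2 1.36, SE 0.22, adjusted p = 0.00416). It had already risen by 2.57 between day 3 and day 7. Lypd2 went from 11.6, 4.49 and 10.5 CPM to 34.5, 29.9 and 35.7 CPM (log2 1.91, adjusted p = 0.0229). Msln, mesothelin, rose by 1.05 and Perp, a desmosome protein, by 1.14 (adjusted p = 0.0251 and 0.0479). The covariate left a median of 0.77, and Cldn1 alone was called.

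The remaining cell type lists held few calls. Of 10 adipocyte genes all had positive differences (median 0.76) and 1 passed, Fabp4, a fatty acid carrier that is also made by phagocytes and vessels, at 1846, 992 and 1014 CPM and then 3442, 2810 and 3406 CPM (log2 1.33, adjusted p = 0.0434). Adipoq, adiponectin of fat cells, stood at 608, 328 and 279 CPM and then at 899, 791 and 889 CPM without overlap (adjusted p = 0.106). Among vessel and stroma markers Eng of endothelium fell by 1.12, Pdgfrb and Kcnj8 of pericytes by 1.3 and 0.74, and Pdgfra of fibroblasts by 1.07, with adjusted p from 0.0214 to 0.0405. None of these 4 passed with the muscle covariate. They were the only calls among 12 endothelial, 11 pericyte and smooth muscle and 12 fibroblast genes tested (medians -0.38, -0.35 and -0.16). Over all genes tested 4.9% were lower. Of the fibroblast genes 8 had negative and 4 positive differences. For 3 of them day 14 lay wholly below day 7, and for 2, Dcn and Gsn, wholly above. Of the neuron list 6 of 12 were abundant enough to test: Uchl1, a ubiquitin hydrolase, fell from 193, 157 and 273 CPM to 88.2, 60.6 and 81.6 CPM (adjusted p = 0.0105), and Stmn2, a growth cone protein, rose by 0.62 (adjusted p = 0.029). The neurofilament genes Nefl, Nefm and Nefh were at 0.557 CPM or lower in each of the 6 libraries.

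**Figure D4:**
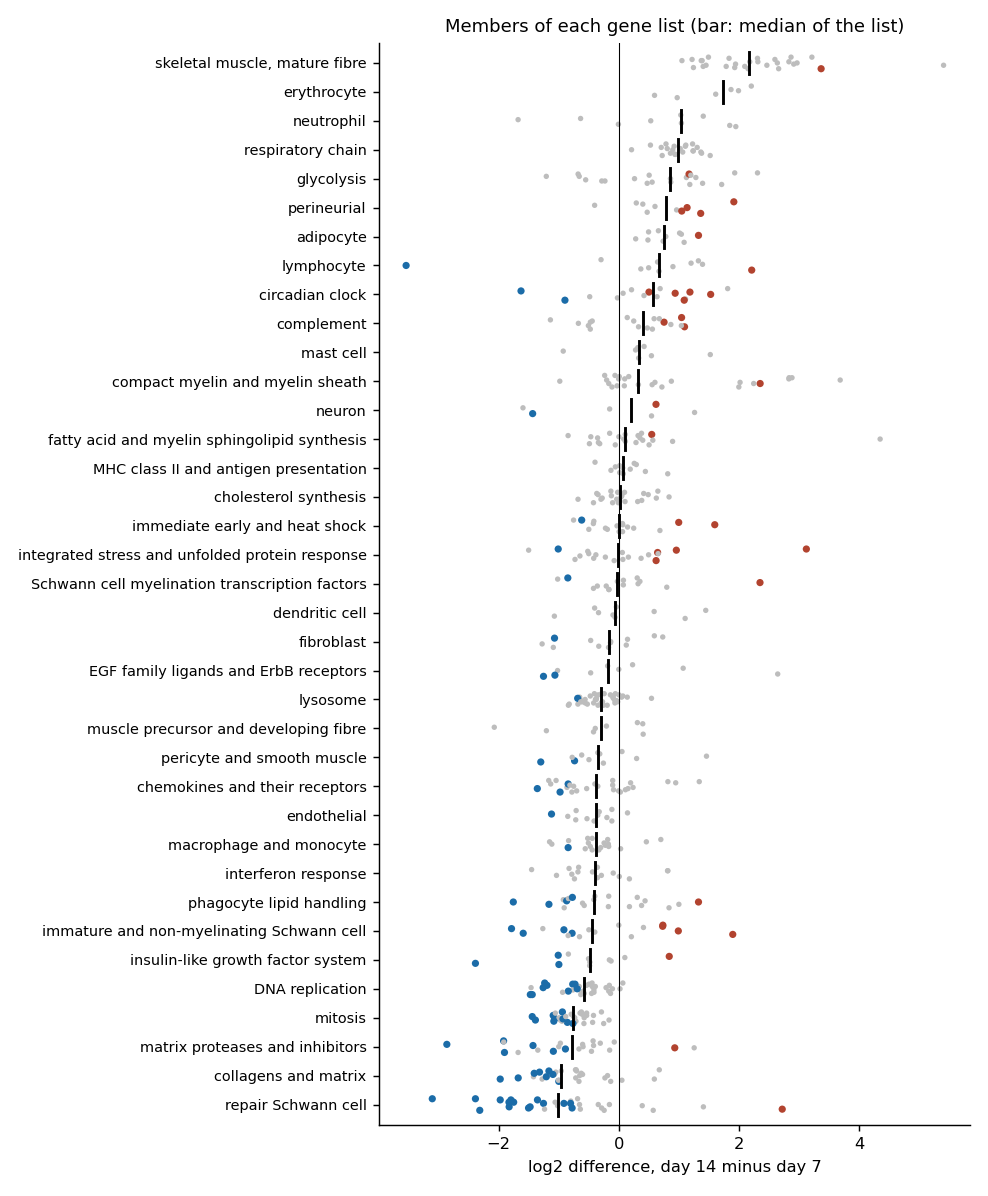
Log2 difference, day 14 minus day 7, of each tested member of the 37 lists; red points passed the test and were higher, blue passed and were lower, grey did not pass, and the bar is the list's median. The repair Schwann cell list has the lowest median, -1.02, with 16 lower members, and the mature muscle fibre list the highest, 2.17, with 1 called member.

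Of 16 clock genes 5 rose and 2 fell (median 0.57), against 2.52% and 4.9% of all genes tested. Per1 stood at 11.5, 9.32 and 7.83 CPM at day 7 and at 24, 23.2 and 17.9 CPM at day 14 (log2 1.18, SE 0.2, adjusted p = 0.00639). Dbp, a clock output factor, stood at 56.5, 24.4 and 24.2 CPM and then at 100, 130 and 73.3 CPM (log2 1.53, adjusted p = 0.0207). Nr1d2 (REV-ERB beta), Tef and Bhlhe40 rose by 1.09, 0.94 and 0.5. The activators Npas2 and Arntl, which is BMAL1, fell by 1.63 and 0.9 (adjusted p = 0.00416 and 0.0481); Npas2 stood at 3.95, 4.59 and 5.17 CPM and then at 1.49, 1.48 and 1.46 CPM. The labels gave no time of day for the dissections, so the day after injury and the hour cannot be told apart. Under the muscle covariate 1 was called higher and 1 lower, with a median of 0.66.

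The promoter of Per1 (chr11:69098699-69098998, plus strand) is shown because it holds the E-box CACGTG bound by the clock activators, in capitals below. That E-box was found for 5 of 14 clock genes with an entry (35.7%) and for 11.3% of all tested genes with an entry. Of the 6 called clock genes with an entry 2 held it, Per1 and Tef.
Per1: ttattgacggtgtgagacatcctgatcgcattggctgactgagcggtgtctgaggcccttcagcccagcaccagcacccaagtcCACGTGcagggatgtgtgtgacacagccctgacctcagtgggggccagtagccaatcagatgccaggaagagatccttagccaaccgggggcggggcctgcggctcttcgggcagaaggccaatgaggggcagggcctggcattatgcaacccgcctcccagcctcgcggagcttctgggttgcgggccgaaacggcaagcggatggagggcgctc

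Stress and growth factor lists gave mixed signs. Herpud1, of the endoplasmic reticulum stress response, stood at 54, 48.2 and 57.7 CPM and then at 92.5, 113 and 105 CPM (log2 0.96, SE 0.13, adjusted p = 0.00134). Atf4, the factor of the integrated stress response, and Phgdh, of serine synthesis, rose by 0.65 and 0.62. Chac1, a glutathione-degrading target of that response, stood at 1.36, 0.888 and 2.32 CPM and then at 2.48, 20.2 and 16.8 CPM (adjusted p = 0.0388). Its 2 high libraries were the 2 muscle-rich ones of day 14, and with the muscle covariate the adjusted p was 0.236. Sesn2 fell by 1.01, which made 4 of 20 higher and 1 lower (all genes tested, 2.52% and 4.9%), with a median of -0.01.

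Nr4a1, an immediate early nuclear receptor, went from 14.3, 17 and 25.9 CPM to 47, 76.5 and 49.6 CPM (log2 1.6, adjusted p = 0.0189), Hspa1b, an inducible HSP70, rose by 1 and Junb fell by 0.62, of 17 genes listed. Of 11 genes of the insulin-like growth factor system, Igfbp6 rose by 0.84, and Igfbp3, Igfbp5 and Igfbp2 fell by 1.01, 1 and 2.39. Tgfa fell by 1.06, and with Btc it made 2 of 9 tested EGF family genes lower. Beside the counts of these lists, 2.52% of all genes tested were higher and 4.9% lower.

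Among the 6 libraries, the summed levels of energy metabolism genes were highest in the 2 muscle-rich ones of day 14. All 22 respiratory chain genes had positive differences (median 0.98) and none passed edgeR's test, with 19 at an unadjusted p under 0.05 (all genes, 32.2%) and 5 called higher by DESeq2. Their summed level was 15610 and 14910 CPM in the 2 muscle-rich day 14 libraries and 8324 CPM in the third, against 7038, 5233 and 7584 CPM at day 7. The covariate brought the median to 0.35. Of 21 glycolysis genes (median 0.86) 1 passed, Slc16a1, the lactate transporter MCT1, at 97.6, 79.3 and 94.2 CPM and then 185, 177 and 247 CPM (log2 1.17, SE 0.18, adjusted p = 0.00371), and it also passed with the covariate (adjusted p = 0.0124), where the glycolysis median was -0.2.

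Skeletal muscle genes themselves were high in day 14 replicates 2 and 3 and in day 7 replicate 3. Acta1, actin of muscle fibres, stood at 1451, 778 and 6420 CPM and then at 1711, 20590 and 16120 CPM (log2 2.15, adjusted p = 0.278), and its sign turned with the covariate (-0.52). Myh2 differed from it: it stood at 3.58, 4.04 and 5.57 CPM and then at 40.8, 31 and 64.3 CPM, 10.3-fold higher with no overlap (log2 3.37, SE 0.5, adjusted p = 0.00315), and 2.93 with the covariate (adjusted p = 0.00662). None of the 8 tested genes of muscle precursors and developing fibres passed with edgeR or DESeq2, and 0 had an unadjusted p under 0.05.

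With the muscle covariate 271 genes passed (1.71%), of which 127 were higher (0.801%) and 144 lower (0.908%), and 250 of the 271 had also passed without it, each in the same direction. Among the genes with the smallest p there, Plekha6 (log2 2.08, adjusted p = 0.00368), Igsf11, an adhesion protein (1.54, 0.00559), Slitrk1, a neurite protein (3.27, 0.00567), and Bmper, a BMP-binding protein (1.08, 0.00559), joined those named above on the higher side. Bmper had overlapped between days, at 31, 32.1 and 18.6 CPM and then 58.3, 27.9 and 40.4 CPM (adjusted p = 0.107 without the covariate). On the lower side Col2a1, type II collagen, stood at 3.89, 3.4 and 14.6 CPM and then at 0.248, 0.221 and 0.318 CPM, and Gadd45a, a stress gene, at 121, 84.4 and 198 CPM and then 29, 45.7 and 51.1 CPM. Both also passed without it (adjusted p = 0.00429 and 0.0109). Mettl21e, a methyltransferase of muscle, had a difference of 0.59 without the covariate (adjusted p = 0.807) and -3.42 with it.

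The same interval in Mutant nerves, which shares no library with the wild type comparison, called 2807 genes (17.7%), 8.55% of the tested genes higher and 9.16% lower. Of the 1175 wild type genes, 549 passed there in the same direction, 46.7% of the wild type list and 19.6% of the Mutant list, and 6 in the opposite one. The same sign was seen for 1057 (90%), and the share over all genes tested was not computed. Muscle RNA was also higher at day 14 in the Mutant, at 1.03% to 13.8% of counts against 0.183% to 0.388% at day 7. The agreement is therefore not independent of what else differed between the days. Lgals7 rose by 2.92 in the Mutant, Klf5 by 1.78, Egfl8 by 2.11 and Pou3f1 by 1.54, and Plaur, Spp1, Atf3 and Gzmb fell by 1.78, 1.93, 2.61 and 6.32, all past the test. The repair list had 21 of 31 lower in the Mutant, with a median of -1.39. Mag and Pmp2 did not pass there, at -0.16 and -1.11, values that include the day 7 library with the high myelin level.

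**Figure D5:**
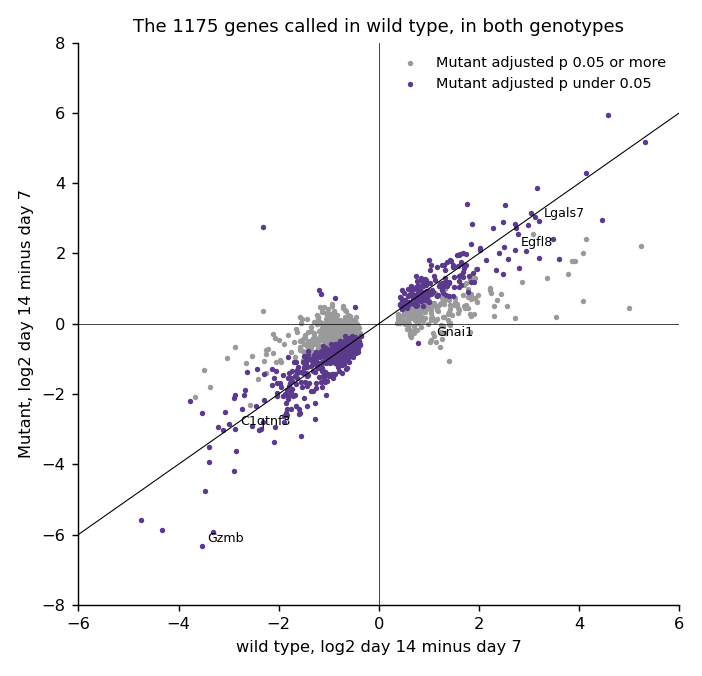
The 1175 genes called in wild type, by their log2 difference between days 14 and 7 in wild type (horizontal) and in Mutant nerves (vertical); purple genes also passed the test in the Mutant, the diagonal marks equal differences, and 11 genes lie outside the axes. Most points, 1057 genes, lie in the quadrants of equal sign, and Gzmb is farther from 0 in the Mutant.

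The test of the difference itself, time by genotype, passed for 15 genes (0.0946%), of which 4 had a positive interaction, wild type minus Mutant (0.0252%), and 11 a negative one (0.0694%). Of the 15, 4 were also called in wild type. Gnai1, an inhibitory G protein subunit named here after its values were seen, was higher at day 14 in wild type, at 30.3, 24.1 and 25.5 CPM and then 68, 51.5 and 44.2 CPM (log2 1.04, adjusted p = 0.00802). In the Mutant its difference was -0.45 and the interaction was 1.49 (SE 0.26, adjusted p = 0.0446). The count of 15 was unsteady, from 1 without wild type day 14 replicate 3 to 212 without Mutant day 14 replicate 2.

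Between day 3 and day 7, in a comparison that shares the day 7 libraries, 6191 genes passed in wild type (39.1%), 19.4% of the tested genes higher and 19.6% lower. Side by side, Spp1 averaged 3376 CPM at day 3, 732 at day 7 and 217 at day 14. Plaur averaged 75.6, 19.8 and 7.33 CPM and Shh 454, 13.9 and 1.59 CPM. C1qtnf3 averaged 2.75, 103 and 14.1 CPM and Cnih2 2.94, 14.9 and 3.64 CPM, so these peaked at day 7 among the 3 times.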

How the data were processed

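RNA-seq of quick-frozen sciatic nerve (total RNA, stranded mRNA libraries) was analysed from the deposited table of 18 injury time course libraries. The authors deposited estimated counts for each gene, with kallisto and mm10 named in the submitters' processing notes; the version is not given in the sources used here. They were rounded to whole numbers. Genes passing filterByExpr (minimum count 10) were scaled with TMM and tested with edgeR 4.0.16 (quasi-likelihood, robust; R 4.3.3) in one fit of all 18 libraries, with Benjamini-Hochberg adjustment over the genes tested and a threshold of 0.05. Every adjusted p is from that test unless another is named. Levels are CPM after TMM scaling, computed from the deposited counts.

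The members and lists were chosen with earlier results of these data known. Named genes were, per direction, the 10 with the smallest p among called genes with an absolute log2 difference of 1 or more and a mean of 1 CPM or more, without predicted, pseudogene and sex-linked names; the same with a covariate; from every list the 4 genes lowest in p and those needed to describe it; and the 8 smallest p of the interaction. The covariate was the mean, over the muscle fibre genes, of the log2 CPM before TMM scaling with a pseudocount of 2. Muscle-rich libraries held over 5 times the median share of muscle RNA of the 18 libraries, a threshold of 2.045%.

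The alternatives were RLE scaling, no filter, DESeq2 1.42.0, a replicate block, and muscle and Y-linked covariates. Others left out muscle-rich libraries or muscle genes, or kept only the compared libraries. Each library of the compared groups was also left out in turn. For the wild type comparison Mutant day 7 replicate 1 was left out too (chosen after seeing the data). The remaining libraries of the fit were not left out singly there. Same-numbered libraries of the 2 days had deviations correlated at 0.0724, -0.548 and 0.402, which cannot settle whether the numbers pair the samples. The main fit did not treat the numbers as pairs, and the replicate block is the alternative that used them. The fit was tested on simulated data. Promoters were from RefSeq on GRCm38.p6 and gene positions from GENCODE on mm10. A few list members are not reported here by name.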

Additional observations from a re-analysis of the deposited data

Results flagged for a closer look

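For 15 genes the change from day 7 to day 14 differed between wild type and Mutant nerves by edgeR's interaction term, and the 8 with the smallest p under the naming rule are given here. Without wild type day 14 replicate 3 the count was 1. Meg3, a maternally expressed noncoding RNA, gave the smallest p. It stood at 10.3, 7.35 and 7.49 CPM and then at 5.64, 6.2 and 4.83 CPM in wild type. In the Mutant it went from 3.3 ± 0.658 to 36.6 ± 5.61 CPM (SD, n = 3), and the difference between the genotypes was -4.06 on the log2 scale (edgeR adjusted p = 0.000632). Adamts6, a matrix protease, had an interaction of -2.92 (adjusted p = 0.0238) and the Mutant log2 difference was 2.27. Ccnl1, cyclin L1, Fam193b, Pnisr, a splicing-related protein, and Gramd1a had interactions of -1.89, -1.86, -1.6 and -0.96; the first 3 did not pass in wild type and rose in the Mutant, while Gramd1a fell in wild type (log2 -0.47) and rose in the Mutant (0.48).

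In the other direction, Tmem252 had an interaction of 2.07 (adjusted p = 0.0178): it overlapped between days in wild type and fell by 1.92 in the Mutant. Slc27a1, a fatty acid transporter, had an interaction of 1.45 (adjusted p = 0.0255), with log2 differences of 0.5 in wild type and -0.95 in the Mutant. What moved these genes was not tested.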

How the results depend on the processing

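The 1175 calls (399 higher, 776 lower) numbered 656 (244 and 412) with no filter, 582 (213 and 369) with the Y-linked covariate, 292 (162 and 130) with only the compared libraries, 271 (127 and 144) with the muscle covariate, 70 (49 and 21) when muscle-rich libraries were left out and 2440 (934 and 1506) with DESeq2. With single libraries left out they ran from 176 to 1933, the higher from 76 to 729 and the lower from 73 to 1204. With the replicate block there were 783 calls, 492 of them lower. Deviations of same-numbered libraries correlated at 0.0724, -0.548 and 0.402, and those of other pairs ran from -0.604 to 0.64. These values cannot settle whether the numbers pair the samples. The Mutant count of 2807 was 1805 with no filter, 1466 with the muscle covariate, 88 with only the compared libraries, and 1526 to 5144 with 1 library left out. The interaction count of 15 was 27 with RLE scaling, 6 with the replicate block, 344 with the muscle covariate, 1490 when muscle-rich libraries were left out, 5 with the Y-linked covariate, 4 with only the compared libraries, 437 with DESeq2, and 1 to 212 with 1 library left out. The cause of these shifts was not tested.

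Signs turned for few of the named genes. The muscle covariate gave -3.42 for Mettl21e, -0.52 for Acta1, -0.47 for Ckm and 0.085 for Egr2. Leaving out the muscle-rich libraries gave 0.26 for Egr2, 0.014 for Olig1, 0.091 for Fam193b and 0.0020 for Ccnl1. With 1 library left out, Mettl21e ran from -0.19 to 5.34, Egr2 from -0.46 to 0.060, Olig1 from -0.41 to 0.042, Cd74 from -0.096 to 0.39 and Ccnl1 from -0.18 to 0.047.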

Other observations

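The 34 genes called under each of the 16 alternatives, 28 higher and 6 lower, included genes on none of the lists, chosen here after their values were seen. Npy1r, a receptor for neuropeptide Y, stood at 4.33, 5.03 and 7.16 CPM at day 7 and at 12.6, 15.6 and 15.6 CPM at day 14 (log2 1.41). Ramp3, which modifies calcitonin-family receptors, stood at 1.98, 1.82 and 1.99 CPM and then at 5.64, 5.46 and 5.21 CPM (log2 1.49). Both groups of libraries were tight and apart. Omd, the proteoglycan osteomodulin, Gjb5, a connexin, Mpzl2, an adhesion protein of epithelia, and Lag3, an inhibitory receptor of lymphocytes, were higher by 1.32, 1.24, 1.33 and 1.49. P4ha3, a collagen prolyl hydroxylase subunit, stood at 10.3, 13.9 and 7.56 CPM and then at 2.73, 1.84 and 1.91 CPM (log2 -2.29).

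Rpl3-ps1, a processed pseudogene of a ribosomal protein gene, was also among the 34. Before TMM scaling it stood at 0.329, 0 and 0.389 CPM at day 7 and at 103, 215 and 797 CPM at day 14. The wild type day 3 libraries held 423, 148 and 166 CPM. The Mutant libraries held 0.398, 1.45 and 0.615 CPM at day 7 and 879, 200 and 661.5 CPM at day 14. Reads of a near-identical copy cannot be told apart from its own, so its difference is uncertain. A technical difference of the day 7 libraries was not tested and cannot be told apart from the day.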
